A study of Homo sapiens with 6 samples.

Results

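The enzymes of glycolysis, of the pentose phosphate pathway and of the citrate cycle were followed at the mRNA level in MOLM-13 cells, a human line of acute myeloid leukaemia that carries a KMT2A fusion. The genes were taken from a list of 39 enzyme and regulator symbols, and a gene was counted as listed where its symbol was a row name of the authors' deposited table of differential expression. Of the 39 genes, 19 were listed and 20 were not, and an unlisted gene either did not pass an adjusted p of 0.05 or was not tested. The study compared 3 RNA-seq libraries from cells given the solvent DMSO for 24 h with 3 from cells given 50 nM DEG-35 for 24 h. The labels call both groups wild type. DEG-35 is named in the study as a degrader of IKZF2, a transcription factor, and of the kinase CK1α.

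The authors' deposited table holds 6831 genes with their log2 fold changes and their raw and adjusted p-values, and the latter fit 15064 tests. No values per library and no mean levels were analysed here, so the spread between the 3 libraries of a group cannot be shown and the depth is unknown. Each error below is a standard error (SE) implied by the fold change and its p-value. The header does not name the numerator, and values were read as DEG-35 over DMSO, so every direction would turn round under the other order. Separate cultures are not stated in the labels, and the p-values may then measure technical spread only. As no levels were given, the cell line could not be checked against myeloid markers. RNA per cell and the number of cells cannot be told apart in such bulk libraries.

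Glycolysis splits glucose into pyruvate and yields ATP and NADH, and lactate dehydrogenase turns pyruvate into lactate. The pentose phosphate pathway branches off at its first phosphorylated sugar and makes NADPH and ribose for nucleotides. The pyruvate dehydrogenase complex links glycolysis to the citrate cycle, whose mitochondrial enzymes feed electrons to respiration. Most steps of glycolysis can be run by several isozymes encoded by separate genes, with different main tissues.

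Those of the 39 enzyme genes that were listed were lower with DEG-35, with HK1 as the exception. The 39, like the other lists below, were chosen with earlier results of these data known, so their shares by direction are no independent support. Of the 39 genes, the authors' deposited table had 18 lower and 1 higher. The share listed, 48.7%, was near the 45.3% of all tested genes, so the number that changed is not a result about these genes. The share lower was 46.2%, beside 24.0% of all tested genes that were lower, and the share higher was 2.56%, beside 21.4%. Among listed genes, 94.7% of the enzyme genes were lower, beside 52.9% of the whole table. The median log2 fold change of the 19 was -0.49, beside -0.19 for all listed genes. Recentring the table on that median of -0.19 left 15 enzyme genes lower and put 4 higher. Of those 15, PFKL at -0.47 and ALDOA at -0.036 no longer met the table's largest p after recentring. A shift of all values up by 0.3 left 14 lower and 5 higher.

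The falls were moderate in size. They ran from 1.12-fold for SUCLG1 to 2.59-fold for ENO2, with a median log2 fold change of -0.50 over the 18 lower genes, close to the -0.45 of all lower genes of the authors' deposited table. In 9 genes the log2 fold change fell by 0.5 or more, in 5 by 0.3 to 0.5, and in 4 by less than 0.3. The 4 smallest falls were those of ALDOA, GAPDH, IDH3A and SUCLG1. Among the 19, 5 genes (IDH2, LDHA, TPI1, PKM and HK2) stood among the 1000 smallest adjusted p-values of the table's 6831 genes. Their implied SEs ran from 0.0529 to 0.0678, below the table's median of 0.0891. Such a rank depends on precision as well as on the size of the change.

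**Figure D1:**
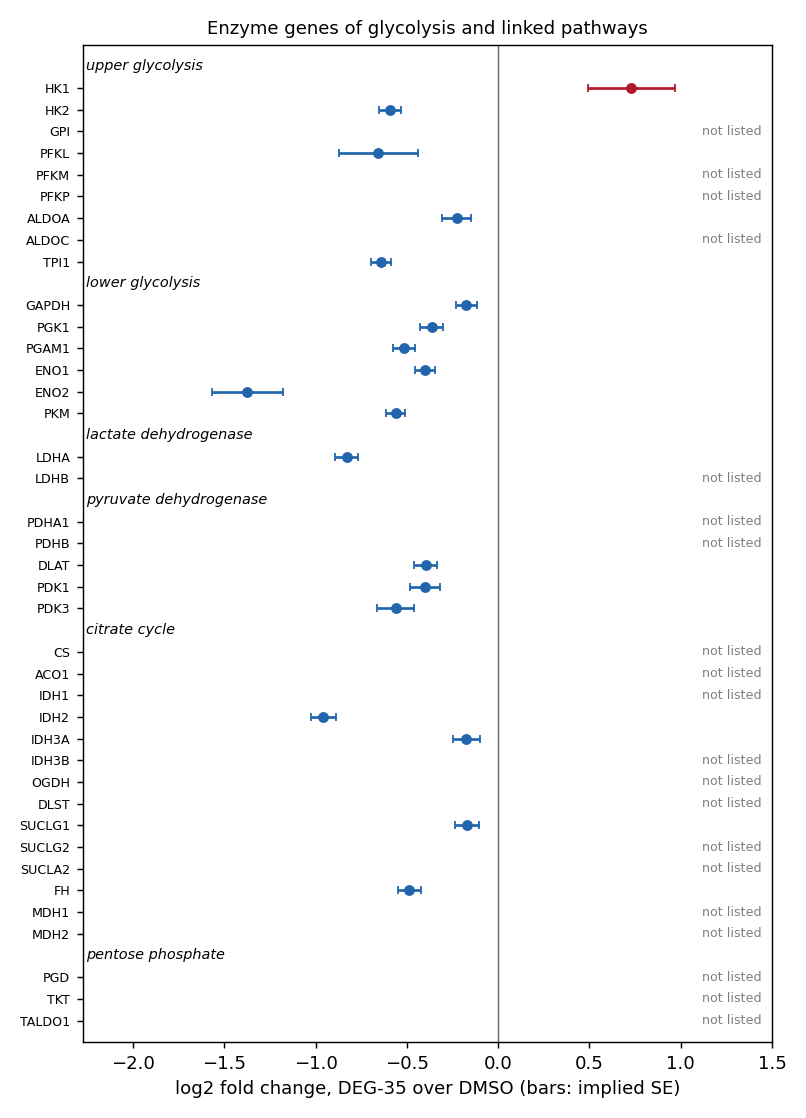
Log2 fold change (horizontal axis, DEG-35 over DMSO) of the 39 enzyme genes in pathway order, with points for listed genes, bars for the implied SE, blue for lower and red for higher. The 18 lower genes lie left of 0, HK1 alone lies right of it, and the 20 unlisted genes have no value.

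The first steps of glycolysis trap glucose and split it. HK2, the hexokinase found on mitochondria of many tumour and muscle cells, fell 1.51-fold, or -0.59 ± 0.0619 on the log2 scale (± implied SE; adjusted p = 1.99e-20 in the authors' deposited table). HK1, the hexokinase of most other tissues, was 1.66-fold higher in that authors' deposited table, at 0.73 ± 0.237 (adjusted p = 0.00613). The 2 hexokinase genes thus went in opposite directions, but the rise of HK1 was the less precise, with a 95% interval from 0.26 to 1.19. GPI, which isomerises glucose phosphate, was not listed.

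Phosphofructokinase commits sugar to glycolysis, and its liver-type subunit PFKL was lower at -0.66 ± 0.216 in the authors' deposited table (adjusted p = 0.00659). Genes for the muscle-type and platelet-type subunits, PFKM and PFKP, were not listed. PFKL and HK1 had the largest implied SEs of the 19 genes, and 11.4% and 9.74% of the table's genes had a larger one. The aldolase gene ALDOA was slightly lower at -0.23 ± 0.0808 (adjusted p = 0.0127 in the authors' deposited table). Its paralogue ALDOC was not listed. TPI1, which interconverts both triose phosphates, fell 1.56-fold at -0.64 ± 0.0530 (adjusted p = 2.31e-32 in the authors' deposited table).

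All 6 genes of the ATP-yielding second stage of glycolysis in the list were lower, beside 24.0% of all tested genes. GAPDH, the oxidising step and a common reference gene, had the smallest change, -0.17 ± 0.0586 in the authors' deposited table (adjusted p = 0.00811). The ATP-forming kinase gene PGK1 stood at -0.36 ± 0.0620 in the authors' deposited table, and the mutase gene PGAM1 at -0.52 ± 0.0595. Enolase genes followed, with the widely expressed ENO1 at -0.40 ± 0.0531 and the neuron-type ENO2 at -1.37 ± 0.194 in the authors' deposited table. ENO2 was the 1 enzyme gene of the 39 to change by at least 1 on the log2 scale, a 2.59-fold fall (adjusted p = 1.21e-11 in the authors' deposited table). PKM, the pyruvate kinase of most dividing cells, fell 1.48-fold at -0.56 ± 0.0529 (adjusted p = 5.84e-25 in the authors' deposited table). The values are per gene and do not separate the splice forms of PKM.

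LDHA, the lactate dehydrogenase subunit that favours making lactate, fell 1.78-fold, at -0.83 ± 0.0644 (adjusted p = 1.83e-36 in the authors' deposited table). LDHB, the subunit of heart and other oxidative tissues, was not listed. Counted by reaction, 9 of the 10 glycolytic steps had a lower gene, and the isomerase step, with GPI alone, had none. With further isozymes counted, 4 of the steps with a lower gene had a higher one as well. The higher genes were HK1 and HK3, GAPDHS, PGAM2 and ENO3. No rate over all tested genes was worked out for such counts by step.

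Further isozymes and subunits outside the list of 39 were more often higher than lower. A wider set of 72 symbols, made to hold further isozymes, subunits and regulators of the same pathways, added 33 genes, though not every isozyme (PGAM4 is not in it). Of these 33, the authors' deposited table lists 15, namely 11 higher and 4 lower, and their median was 0.41. The share listed was 45.45%, near the 45.3% of all tested genes. The share higher was 33.3%, beside 21.4% of all tested genes, and the share lower 12.1%, beside 24.0%. Over all 72 genes 22 were lower and 12 higher, so 64.7% of the listed ones were lower, beside 52.9% of the table. The split by direction thus depends on which isozymes are counted, and the 39 genes do not stand for whole pathways.

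At the hexokinase step HK3, known from white blood cells, was 3.88-fold higher at 1.96 ± 0.479 (adjusted p = 1.77e-04 in the authors' deposited table). The muscle-type mutase PGAM2 stood at 1.00 ± 0.251 and the muscle-type enolase ENO3 at 0.63 ± 0.193 in the authors' deposited table, each against a lower counterpart. GAPDHS, the sperm form of GAPDH, was higher at 0.51 ± 0.138 in the authors' deposited table. PKLR, the liver and red-cell pyruvate kinase, was lower like PKM, at -1.37 ± 0.504 (adjusted p = 0.0164 in the authors' deposited table). LDHD, which oxidises the other mirror form of lactate, was 2.70-fold higher at 1.43 ± 0.293 in the authors' deposited table. These isozymes were measured less precisely: the median implied SE was 0.102 for the 15 and 0.0644 for the 19. With an implied SE of at most 0.1 required, 7 of the 15 stayed, 4 higher and 3 lower. None of HK3, PGAM2, ENO3, GAPDHS, PKLR and LDHD was among the 7, as their implied SEs ran from 0.138 to 0.504.

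**Figure D2:**
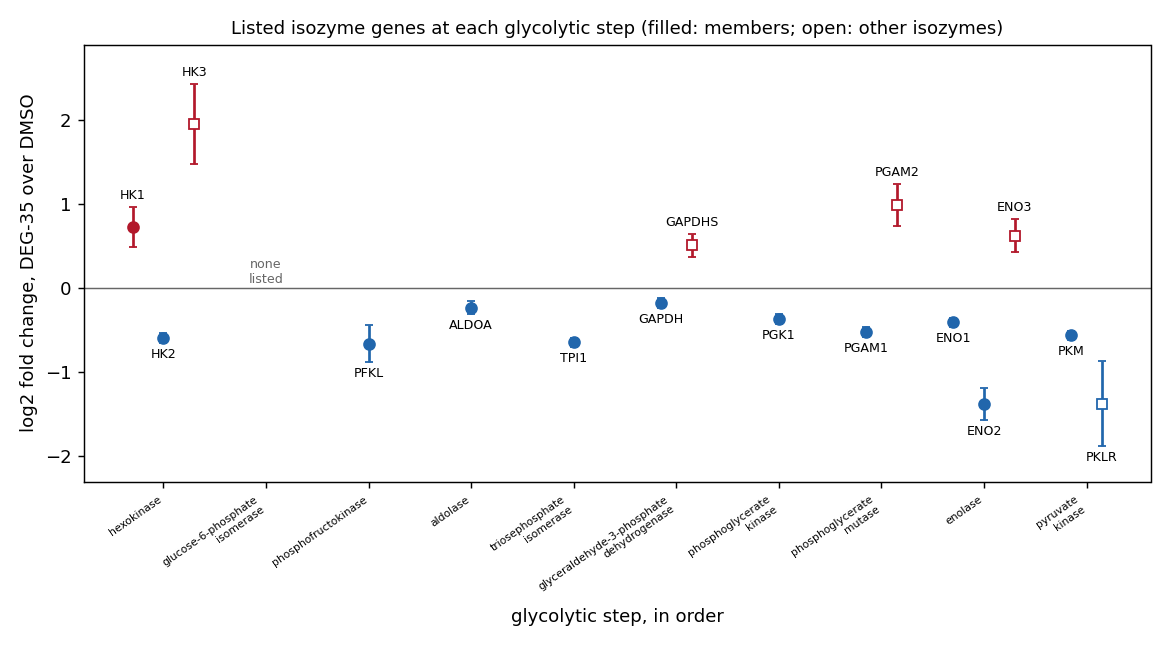
Log2 fold change (vertical axis, DEG-35 over DMSO, bars for implied SE) of the listed isozyme genes at each of the 10 glycolytic steps in order, with filled circles for genes of the 39 and open squares for other isozymes. Filled points other than HK1 lie below 0, while HK3, GAPDHS, PGAM2 and ENO3 lie above it.

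**Figure D3:**
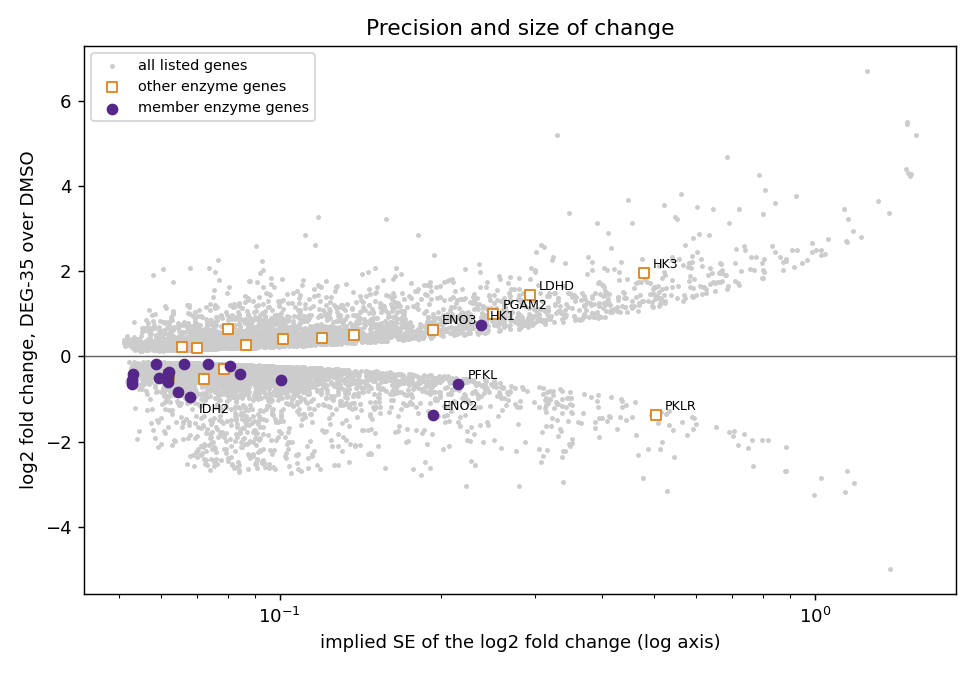
Log2 fold change (vertical axis) against its implied SE (horizontal log axis) for all listed genes with an SE (grey), the 19 listed enzyme genes (purple) and 15 other enzyme genes (open squares). The empty wedge around 0 is the adjusted p threshold of 0.05, which a less precise gene passes with a larger change, and 15 of the 19 enzyme genes have an SE of at most 0.1.

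The promoter windows of some of these genes were read for the core letters of the hypoxia response element, as the genes of several glycolytic enzymes are textbook targets of hypoxia-inducible factors. Windows hold 250 bases before and 50 after the annotated start (RefSeq, GRCh38.p14), 1 per gene, and 38 of the 39 genes matched. The first window given for a gene was used, and whether it holds the main start in these cells was not checked. The letters ACGTG, on either strand, occurred in 8 of 18 windows of lower genes (44.4%) and in 5 of 19 windows of unlisted genes (26.3%). They occurred in 21.6% of all 27305 windows and in 26.7% of the 6504 windows with 65 to 75% GC. The windows of lower genes had a median GC content of 69.8%, beside 58.3% for all windows. The letters GCGTG were found in 12 of the 18 (66.7%), beside 8 of the 19 windows of unlisted genes (42.1%), 36.3% of all windows and 57.3% of those with that GC content. CACGTG, the E-box read by MYC, contains ACGTG on both strands and was found in 2 of the 18 (11.1%), in 10.5% of the windows of unlisted genes, in 7.44% of all windows and in 10.6% of those with that GC content. In the 9 matched windows of higher enzyme genes outside the 39, with a median GC content of 57.3%, ACGTG occurred in 1 and GCGTG in 4. A match is a run of letters and no measured binding site, and no binding data were analysed.

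The 5 windows that follow are shown because they span the range seen, and they were picked after their matches were known. LDHA (chr11:18394313-18394612, plus strand), PGK1 (chrX:78103998-78104297, plus strand) and HK2 (chr2:74833877-74834176, plus strand) were lower and hold matches. TPI1 (chr12:6867281-6867580, plus strand) was lower and holds no match. ALDOC (chr17:28576846-28577145, minus strand) was not listed and holds matches. Each is written 5′ to 3′ on the strand of the gene, and capitals mark ACGTG on either strand.
LDHA: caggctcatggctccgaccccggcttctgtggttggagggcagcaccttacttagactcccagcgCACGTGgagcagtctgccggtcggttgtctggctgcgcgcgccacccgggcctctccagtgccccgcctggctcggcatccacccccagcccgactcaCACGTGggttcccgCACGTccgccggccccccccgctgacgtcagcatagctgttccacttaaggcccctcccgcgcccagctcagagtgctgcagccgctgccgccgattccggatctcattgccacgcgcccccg
PGK1: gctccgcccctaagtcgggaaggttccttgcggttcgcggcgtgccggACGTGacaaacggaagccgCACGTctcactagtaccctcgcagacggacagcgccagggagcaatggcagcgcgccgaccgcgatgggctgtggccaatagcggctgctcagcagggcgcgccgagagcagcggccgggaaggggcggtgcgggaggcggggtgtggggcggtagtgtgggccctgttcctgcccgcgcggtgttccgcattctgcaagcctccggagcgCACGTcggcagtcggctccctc
HK2: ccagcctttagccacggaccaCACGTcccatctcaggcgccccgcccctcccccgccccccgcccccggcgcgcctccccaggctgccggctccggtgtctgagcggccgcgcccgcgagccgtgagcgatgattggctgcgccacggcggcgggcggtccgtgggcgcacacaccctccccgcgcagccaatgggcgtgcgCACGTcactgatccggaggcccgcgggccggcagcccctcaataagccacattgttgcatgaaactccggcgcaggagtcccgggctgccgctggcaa
TPI1: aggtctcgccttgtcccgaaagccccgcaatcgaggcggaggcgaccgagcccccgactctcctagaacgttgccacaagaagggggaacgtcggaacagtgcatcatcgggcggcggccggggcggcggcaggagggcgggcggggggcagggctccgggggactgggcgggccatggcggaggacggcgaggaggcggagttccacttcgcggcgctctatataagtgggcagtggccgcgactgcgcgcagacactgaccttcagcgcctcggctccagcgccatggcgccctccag
ALDOC: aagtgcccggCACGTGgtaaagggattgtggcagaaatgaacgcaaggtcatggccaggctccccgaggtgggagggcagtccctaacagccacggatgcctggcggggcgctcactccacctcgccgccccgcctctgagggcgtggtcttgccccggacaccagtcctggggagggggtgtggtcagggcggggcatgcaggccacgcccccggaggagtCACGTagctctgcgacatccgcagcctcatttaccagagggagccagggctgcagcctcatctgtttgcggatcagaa
LDHA had 5 matches in 3 stretches, as each of its 2 CACGTG runs reads as a match on both strands. PGK1 had 3 matches and HK2 had 2. ALDOC, not listed, had 3 matches. On the log2 scale LDHA stood at -0.83, HK2 at -0.59, PGK1 at -0.36 and TPI1, with 0 matches, at -0.64 in the authors' deposited table. Whether matches go with the size of a change was not tested.

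Of the 5 pyruvate dehydrogenase genes among the 39, 3 were listed and all 3 were lower, while 2 further genes of the complex's control outside the 39 were higher. The 3 are 60% of the 5, beside 45.3% listed and 24.0% lower among all tested genes. DLAT, the acetyl-transferring core of pyruvate dehydrogenase, stood at -0.40 ± 0.0618 in the authors' deposited table (adjusted p = 1.16e-09). PDHA1 and PDHB, its first subunits, were not listed. The kinases that switch the complex off fell too, PDK1 at -0.40 ± 0.0842 and PDK3 at -0.56 ± 0.101 in the authors' deposited table. PDK2, another such kinase outside the 39, was higher at 0.44 ± 0.120 (adjusted p = 7.66e-04 in the authors' deposited table). The phosphatase regulator gene PDPR was higher at 0.21 ± 0.0700 in the authors' deposited table, and DLD, PDHX, PDK4, PDP1 and PDP2 were not listed.

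Of the 14 genes grouped here as citrate cycle genes, 4 were listed and all 4 were lower. That is 28.6% listed and lower, beside 45.3% listed and 24.0% lower among all tested genes. IDH2, the mitochondrial NADP-dependent isocitrate dehydrogenase that is mutated in some leukaemias, fell 1.94-fold, at -0.96 ± 0.0678. Its adjusted p of 1.11e-43 was the smallest of the 19 in the authors' deposited table. FH, which hydrates fumarate, fell 1.40-fold at -0.49 ± 0.0619 (adjusted p = 4.29e-14 in the authors' deposited table). IDH3A, the catalytic subunit of the NAD-dependent enzyme, was at -0.17 ± 0.0736 and SUCLG1, a succinyl-CoA ligase subunit, at -0.17 ± 0.0661 in the authors' deposited table. Both were near the threshold, with adjusted p-values of 0.0397 and 0.0256, and like GAPDH they lay above the table's median of -0.19.

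The other 10 citrate cycle genes were not listed: CS, which makes citrate, ACO1, IDH1, IDH3B, OGDH, DLST, SUCLG2, SUCLA2, MDH1 and MDH2. IDH1, the cytosolic counterpart of IDH2, was thus not called, and whether the pair differ was not tested. Of the 7 further cycle genes outside the 39, SDHA, the flavoprotein of succinate dehydrogenase, was lower at -0.43 ± 0.0621 in the authors' deposited table. SDHC, its membrane anchor, was higher at 0.23 ± 0.0657 and IDH3G, a regulatory subunit, at 0.27 ± 0.0864 in the same authors' deposited table. By reaction, with genes outside the 39 counted, 4 of the 8 steps of the cycle had a lower gene and 4 had no listed gene. A higher gene was found as well at 2 of the steps with a lower one.

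None of the 3 pentose phosphate genes in the list was listed: PGD, which makes NADPH, and TKT and TALDO1, which rearrange sugars. Their p-values are unknown, and their absence does not show a lack of change. The wider pathway set of 10 genes had 4 listed, in both directions (40%, beside 45.3% of all tested genes). The isomerase RPIA, at -0.53 ± 0.0723, and the epimerase RPE, at -0.30 ± 0.0787, which handle ribulose phosphate, were lower in the authors' deposited table. The reticulum-bound dehydrogenase gene H6PD was higher at 0.64 ± 0.0801, as was the lactonase gene PGLS at 0.41 ± 0.102 in the authors' deposited table.

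Phosphofructokinase is also controlled through a sugar phosphate activator. Of 10 genes for this and nearby sugar phosphate reactions 2 were listed, in opposite directions (20%, beside 45.3% of all tested genes). PFKFB4, which makes and breaks down that activator, fell 3.33-fold, at -1.74 ± 0.143 (adjusted p = 1.99e-32 in the authors' deposited table). TIGAR, a p53 target that breaks the activator down, was 2.10-fold higher at 1.07 ± 0.0868 (adjusted p = 1.34e-33, under its older symbol C12orf5 in the authors' deposited table). PFKFB1, PFKFB2 and PFKFB3 were not listed.

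Of 14 genes for carriers that serve the same routes, 7 were lower, 1 was higher and 6 were not listed. The authors' deposited table thus lists 57.1% of them and has 50% lower, beside 45.3% listed and 24.0% lower among all tested genes. The median of the 8 was -0.56. The glucose transporter SLC2A1 (GLUT1) was at -0.32 ± 0.0794, and the fructose transporter SLC2A5 was the higher one at 0.53 ± 0.110 in the authors' deposited table. The lactate and pyruvate carriers SLC16A1 (MCT1) at -0.47 ± 0.0633, SLC16A3 (MCT4) at -0.92 ± 0.199 and SLC16A7 (MCT2) at -0.64 ± 0.115 were lower in the authors' deposited table. At the mitochondrial membrane, the pyruvate carrier subunit MPC1 stood at -0.29 ± 0.0727 in the authors' deposited table. SLC25A1, which exports citrate, was lower at -0.67 ± 0.0907 and SLC25A10, the dicarboxylate carrier, at -1.19 ± 0.233 in the authors' deposited table. SLC2A3, BSG and MPC2 were among those not listed.

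Hypoxia response genes outside these pathways were counted beside the enzymes. Their list holds regulators of the response, such as HIF1A, ARNT, EGLN2 and VHL, as well as target genes, so its shares are not those of targets alone. The authors' deposited table lists 14 of these 24 genes (58.3%, beside 45.3% of all tested genes), and their median was -0.36. The 11 lower genes were 45.8% of the list, beside 24.0% of all tested genes, and the 3 higher genes 12.5%, beside 21.4%. The lower ones with the smallest adjusted p-values were the mitophagy gene BNIP3 at -0.98 ± 0.0995, the fucosyltransferase gene FUT11 at -0.92 ± 0.125 and the oxidoreductase gene ERO1A at -0.57 ± 0.0781, listed as ERO1L in the authors' deposited table. The higher ones were the demethylase gene KDM4B at 0.49 ± 0.111, ARNT, the partner of HIF1A, at 0.23 ± 0.0666 and MXI1, a MYC antagonist, at 0.22 ± 0.0704 in the authors' deposited table. HIF1A mRNA itself, named here after its value was seen, stood at -0.37 ± 0.0753 in the authors' deposited table. CA9, EGLN3, EGLN1 and VHL were not listed.

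**Figure D4:**
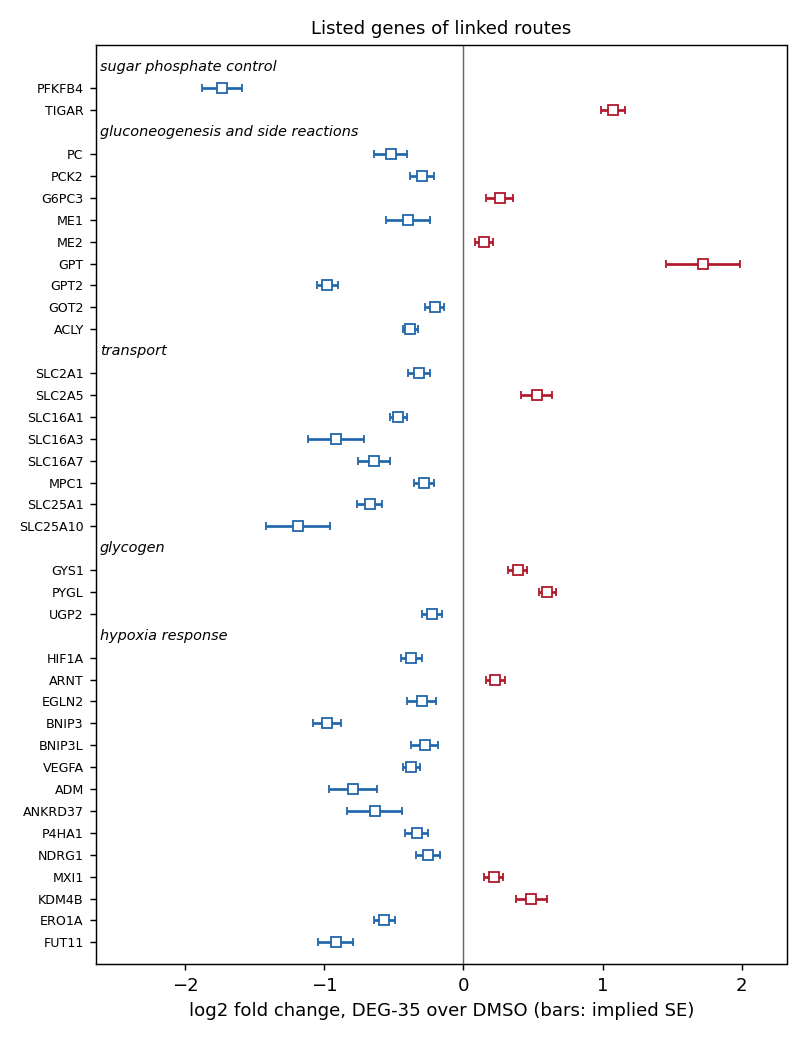
Log2 fold change (horizontal axis, DEG-35 over DMSO, bars for implied SE) of listed genes that control, supply or adjoin the enzyme pathways, by group, with blue for lower and red for higher. In transport 7 of 8 and in the hypoxia response 11 of 14 listed genes lie left of 0, while PFKFB4 and TIGAR lie far out on opposite sides.

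Several glycolytic genes have near-identical copies that can take or give reads, and the sources used here do not say how the authors treated such reads. For each of the 19 listed genes, runs of 50 bases of its longest coding transcript were looked up in the transcripts of all other genes (GENCODE 29, either strand). In 10 genes less than 5% of these runs were shared. The shared part was 31.4% for GAPDH, which has 62 pseudogenes by name, 43.4% for PGAM1, with 13, and 20.8% for TPI1, with 4. It was 88.1% for ALDOA, all of it shared with an overlapping gene model, AC093512.2, and 62.8% for IDH3A, shared with ACSBG1 on the opposite strand. None of the genes that share runs with these 5 was listed under its GENCODE name. It was 10.1% for LDHA and 8.58% for HK2, while PFKL, PDK3, SUCLG1 and HK1 shared 0% of their runs. The values of genes with shared runs are uncertain, and how far shared reads moved any value was not tested.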

How the data were processed

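RNA-seq libraries of MOLM-13 cells, 3 with DMSO and 3 with DEG-35, were grouped by their titles. The submitters' processing notes name hg19, STAR, featureCounts and DESeq2, without versions or order. The authors deposited 1 table with, per the file headers, the log2 fold change of each gene with its raw and adjusted p-values. No adjusted p reaches 0.05 and the largest p is 0.0227, so the table holds only genes under a threshold. The number of tests, 15064, was taken from 2789 genes with p above 1e-04, as the median of adjusted p times rank over p. The implied SE divides the absolute log2 fold change by the normal quantile of the two-sided p, which assumes a Wald test, and 3 genes whose p is 0 have none. Both steps were tested on data simulated under these same assumptions, which checks the computation and not whether the deposited values meet them. No new test was run, and calls are the authors' adjusted p-values.

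The enzyme genes and the lists were chosen with earlier results of these data known. Named were every listed enzyme, control and transport gene, and of other lists up to 3 genes per direction by adjusted p. Older symbols were matched through RefSeq (GRCh38.p14), which gave TIGAR and ERO1A. Protein sequences were not used here. Alternatives were an adjusted p of 0.01, minimum changes of 0.3 and 1, Bonferroni adjustment, an implied SE of at most 0.1, recentring, shifts of 0.3 and the wider enzyme set. Scripts ran in Python 3.11.15 with SciPy 1.17.1, NumPy 2.4.6, pandas 2.3.3 and, for plots, Matplotlib 3.10.9.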

Additional observations from a re-analysis of the deposited data

How the results depend on the processing

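Of the 39 enzyme genes, 16 were listed at an adjusted p of 0.01 (15 lower), 15 with a change of at least 0.3 (14 lower), 13 with Bonferroni adjustment (13 lower, 0 higher) and 15 with an implied SE of at most 0.1 (15 lower, 0 higher), so HK1 was lost under both of the last settings. With a change of at least 1, 1 was listed, 1 lower and 0 higher. Recentring on the table's median put 4 higher, with GAPDH at 0.017, IDH3A at 0.017 and SUCLG1 at 0.022 on the other side of 0 from their deposited values, and a shift up by 0.3 put 5 higher. In the wider set of 72 genes 34 were listed, 22 lower and 12 higher. The 15 listed genes among the other 33 enzymes became 3 with a change of at least 1 (1 lower, 2 higher), 4 with Bonferroni adjustment (2 lower, 2 higher) and 7 with the SE limit (4 higher), and a shift down by 0.3 put 7 lower. Stricter settings leave fewer genes by construction. The share of all tested genes that passes each stricter setting was not worked out. Whether the enzyme genes pass such a setting more often than other genes therefore cannot be told. Shifts could not bring in or drop a gene. Leaving out libraries in turn was not run, as no values per library were analysed. No paired analysis was possible because the deposited table gives only the comparison. Depth is unknown, so what it limits cannot be stated.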

Other observations

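Genes of routes that adjoin glycolysis and the citrate cycle showed both directions. Of 8 glycogen genes 3 were listed, or 37.5%, below the 45.3% of all tested genes. The 2 higher ones were 25% of the 8, beside 21.4%, and the 1 lower gene was 12.5%, beside 24.0%. In the authors' deposited table the liver-type phosphorylase gene PYGL, which breaks glycogen down, was higher at 0.60 ± 0.0599. The synthase gene GYS1 was higher there at 0.39 ± 0.0676. UGP2, which makes the activated glucose donor, was lower there at -0.22 ± 0.0701.

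Of 16 genes of gluconeogenesis and of the side reactions that feed the citrate cycle 9 were listed in the authors' deposited table. The share listed was 56.25%, beside 45.3% of all tested genes. Of the 9, 6 were lower and 3 higher, and their median was -0.30. The lower ones were 37.5% of the 16, beside 24.0% of all tested genes, and the higher ones 18.75%, beside 21.4%. The alanine aminotransferase genes went in opposite directions in the authors' deposited table, with the mitochondrial GPT2 1.97-fold lower at -0.98 ± 0.0761 and the cytosolic GPT 3.30-fold higher at 1.72 ± 0.266. ACLY, which turns citrate back into acetyl-CoA, was lower at -0.38 ± 0.0548 and the pyruvate carboxylase gene PC at -0.52 ± 0.119 in the authors' deposited table. The phosphatase gene G6PC3 stood at 0.26 ± 0.0953 and the malic enzyme gene ME2 at 0.15 ± 0.0647 in the authors' deposited table, both higher.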
